A study of Mus musculus with 4 samples.

Results

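The genes described here were chosen by name, with earlier results of these data known. The list holds Lin28a and Lin28b, the let-7 targets Trim71, Hmga1 and Hmga2, the pluripotency gene L1td1 and the 3 Igf2bp genes. Of the 10 listed genes, 9 were found among the 33565 genes of the count matrices and 1 was not analysed here. They were measured by CapSeq, a split-pool method that marks the RNA of single cells through successive rounds of barcodes, in N2a, NIH/3T3, and mouse embryonic stem cells (mESCs). The mESCs belonged to E14TG2a, N2a cells come from a mouse neuroblastoma, and NIH/3T3 cells are fibroblasts from mouse embryos. N2a and NIH/3T3 cells were grown in medium with 10% fetal bovine serum, and mESCs on gelatin with 15% serum, LIF, 3 µM CHIR99021 and 1 µM PD0325901, which inhibit GSK3 and MEK. The lines were not treated further, and each was 1 culture without a replicate. With 1 library for each, differences between lines could not be tested, and no p-value is given.

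Cells with at least 1000 unique molecular identifiers (UMIs, 1 per captured RNA molecule) and at most 20% mitochondrial UMIs were kept, which left 2323 N2a cells, 2037 NIH/3T3 cells and 2137 mESCs. Their median depth was 6185, 4863 and 4803 UMIs. The matrices were split by the barcode of the opening round, so that 0 barcodes were shared between the lines was set in advance. Levels are UMIs per 1000000 UMIs (CPM) over the summed cells of a line, with exact Poisson 95% intervals, and shares of cells carry exact Clopper-Pearson 95% intervals. Both intervals cover counting error only. Each line occupied 32 sequences of BC1, the barcode of the opening round, and the range over them shows the technical spread within 1 culture. The defining markers followed the labels for 6 of 6 mESC genes, 4 of 4 NIH/3T3 genes and 3 of 4 N2a genes, and the exception was Gata3, which was higher in mESCs than in N2a. UMI counts are not scaled by gene length, so levels are compared between lines for 1 gene and not between genes. Of the 9 genes, 6 overlap a listed gene on the opposite strand and 0 on the same strand, and whether counting used the strand is not given in the sources used here.

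LIN28A and LIN28B are RNA-binding proteins that hold back the maturation of the let-7 microRNAs, and let-7 in turn represses the mRNAs of Lin28, Trim71, Hmga2 and the Igf2bp genes. The circuit is known for its role in embryonic cells, where Lin28 is active and mature let-7 is scarce, and in tumors that take it up again. The IGF2BP proteins bind mRNAs and affect their stability, transport and translation, and the HMGA proteins bind AT-rich DNA and bend it. Mature let-7 and its hairpins were not measured here, since the method captures long RNAs and no gene symbol in the matrices contained let-7.

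The let-7 seed shows which letters of these mRNAs the microRNA can pair with. Of the let-7 family, 10 mature mouse sequences in RefSeq shared the same seed, bases 2 to 8, which is given in capitals for 3 members that differ in their other bases.
mmu-let-7a-5p: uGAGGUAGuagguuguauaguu
mmu-let-7g-5p: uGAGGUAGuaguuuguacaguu
mmu-miR-98-5p: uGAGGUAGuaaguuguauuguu

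The match to the seed, CTACCTC on the sense strand, was searched in the longest annotated 3′ UTR of each gene (GENCODE M39, build GRCm39). Of the 9 genes, 8 held at least 1 match, and 11.6% of all 21539 3′ UTRs did. Among 3′ UTRs of a length near that of the gene, this share ranged from 2.86% (L1td1) to 34.2% (Igf2bp1). The list was made in part of known let-7 targets, so the comparison is a description only. Trim71, Lin28b, Hmga2 and Igf2bp1 each held 4 matches, Lin28a held 2, and Hmga1, Igf2bp2 and Igf2bp3 held 1 each. The 3′ UTR of L1td1, the shortest at 367 bases, held 0. Only 0.241% of all 3′ UTRs held 3 or more, but long 3′ UTRs hold more matches, and among those of a length near that of Igf2bp1 the share was 1.68%. A match is a description of the sequence, not of a site in use. A match from each gene is given with its neighboring bases, read 5′ to 3′ on the strand of the gene. The match is in capitals, as is an A that follows it, which completes the canonical 8-base site.
Lin28a: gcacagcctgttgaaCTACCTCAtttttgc
Lin28b: acccgggcgggaagtCTACCTCAtgcaagc
Trim71: aacattgcctaagtcCTACCTCAgcttaaa
Hmga1: tcctctgttcacaaaCTACCTCtggacggt
Hmga2: gccgacattcaatttCTACCTCAgcatcag
Igf2bp1: gctgtgcgaagtaaaCTACCTCAaggtgtg
Igf2bp2: acacacaaataaaagCTACCTCAggtgttt
Igf2bp3: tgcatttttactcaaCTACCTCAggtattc

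In GRCm39 these matches lay in 3′ UTR exons at chr4:133732501-133732507 (Lin28a), chr10:45257119-45257125 (Lin28b), chr9:114341541-114341547 (Trim71), chr17:27782266-27782272 (Hmga1), chr10:120200130-120200136 (Hmga2), chr11:95852605-95852611 (Igf2bp1), chr16:21878224-21878230 (Igf2bp2) and chr6:49063722-49063728 (Igf2bp3). Hmga1 was on the forward strand and the others on the reverse strand. All 4 matches of Trim71 were followed by A, as were 3 of the 4 in Igf2bp1, both in Lin28a, and 1 of the 4 in Lin28b and in Hmga2.

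The 3 lines differed in which genes of this circuit were high. N2a cells had the highest Lin28a and Lin28b levels, with the Igf2bp genes, Hmga1 and Hmga2 at or below 3.62 CPM. NIH/3T3 cells had the highest Hmga1, Hmga2 and Igf2bp2, with Lin28a and Lin28b at or below 2.56 CPM. mESCs had the highest L1td1, Trim71, Igf2bp1 and Igf2bp3, and intermediate levels of Lin28a and Lin28b. A level at least 4-fold above both other lines was reached by 3 of the 9 genes in mESCs (Trim71, L1td1 and Igf2bp1), 1 in N2a (Lin28b) and 1 in NIH/3T3 (Hmga2). Among all 11366 genes with at least 10 CPM in 1 or more lines, 7.28% passed this rule in mESCs, 6.16% in N2a, 5.67% in NIH/3T3 and 19.1% in any line. Over the BC1 sequences, 7 of the 9 genes had every value of 1 line above every value of both other lines. The exceptions were Lin28a and Hmga1, and 19.2% of all genes had such a separation. The shares of all genes were not matched for level, and the 9 genes were chosen with earlier results of these data known. These counts are therefore a description only.

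**Figure D1:**
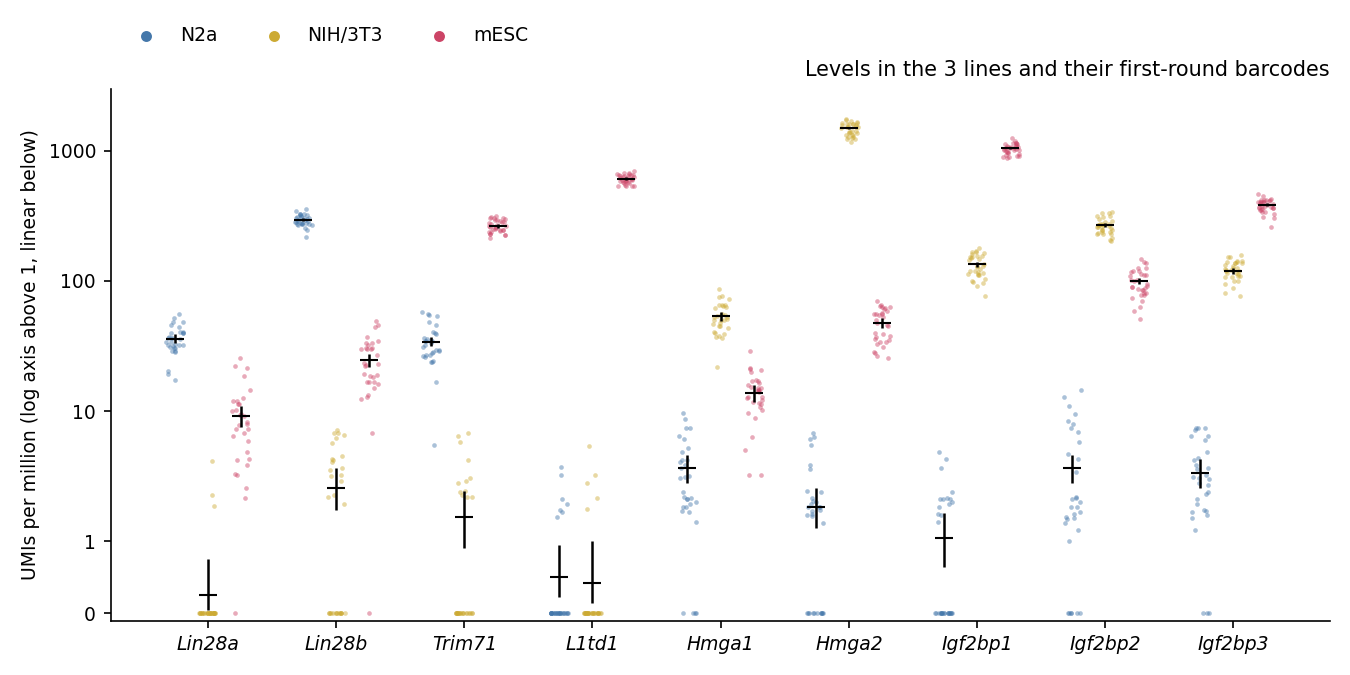
Level of each gene in CPM in N2a, NIH/3T3 and mESCs, on an axis that is logarithmic above 1 and linear below. Small points are the 32 BC1 sequences of a line, bars are the level over all cells and vertical lines its 95% Poisson interval, and L1td1 stands at 613.5 CPM in mESCs with 0.501 and 0.427 CPM in the other lines.

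The Lin28 genes were led by N2a. Lin28b (chr10:45252646-45362557), the paralog best known from tumors, stood at 295.2 CPM in N2a (287.3 to 303.2), 24.6 CPM in mESCs (21.9 to 27.5) and 2.56 CPM in NIH/3T3 (1.73 to 3.66). No intervals overlapped, and the N2a level was 12.0 times that in mESCs (10.7 to 13.5) and 115.1 times that in NIH/3T3 (80.5 to 170.8). Its lowest BC1 value in N2a, 216.7 CPM, was above the highest in mESCs, 48.9 CPM.

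Lin28a (chr4:133730641-133746173), the paralog used in reprogramming to pluripotency, stood at 36.0 CPM in N2a (33.3 to 38.9), 9.09 CPM in mESCs (7.48 to 10.9) and 0.256 CPM in NIH/3T3, where 3 UMIs were counted (0.0529 to 0.749). The intervals did not overlap, but the BC1 values of N2a, from 17.3 to 56.2 CPM, overlapped with those of mESCs, from 0 to 25.5 CPM. The N2a level was 3.96 times that in mESCs (3.24 to 4.89), just under the 4-fold limit, and 140.5 times that in NIH/3T3 (47.9 to 683.1). Both Lin28 genes were therefore higher in the neuroblastoma line than in the stem cells.

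Lin28b UMIs were found in 73.5% of N2a cells (71.7% to 75.3%), 11.2% of mESCs (9.92% to 12.6%) and 1.42% of NIH/3T3 cells (0.955% to 2.04%). After each cell was thinned to 1000 UMIs, the shares were 24.4%, 1.68% and 0.491%, in the same order. For Lin28a, the shares were 21.5% of N2a cells, 4.63% of mESCs and 0.147% of NIH/3T3 cells, and 3.75%, 0.702% and 0.0491% after thinning. As a reference for stray RNA, Hand2, an N2a marker, stood in NIH/3T3 at 0.275% of its N2a level (0.146% to 0.47%). In NIH/3T3, Lin28b was at 0.869% of its N2a level (0.586% to 1.24%) and Lin28a at 0.712% (0.146% to 2.09%), compared with 1.21% for all 4 N2a markers, where Gata2 gave 49 of the 67 UMIs. Barcodes with at most 100 UMIs in the NIH/3T3 matrix had 10.3 CPM of Lin28b (5.62 to 17.2) and 9.55 CPM of Hand2 (5.08 to 16.3), while the cells had 2.56 and 1.11 CPM. The Lin28b share lay above that of Hand2 and below that of the list, so these counts do not settle whether NIH/3T3 cells express Lin28b at a low level, and the 3 UMIs of Lin28a could not be told apart from the Hand2 background.

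Trim71 and L1td1 were led by mESCs. Trim71 (chr9:114336201-114393437), a ubiquitin ligase and RNA-binding protein of early embryonic cells and a classic let-7 target, stood at 266.8 CPM in mESCs (257.7 to 276.0), 34.1 CPM in N2a (31.4 to 36.9) and 1.54 CPM in NIH/3T3 (0.912 to 2.43). The mESC level was 7.83 times that in N2a (7.18 to 8.55) and 173.4 times that in NIH/3T3 (109.5 to 292.9). N2a lay clearly above NIH/3T3, by 22.2 times (13.9 to 37.6), so Trim71 was present in both lines that had Lin28. In NIH/3T3, Trim71 stood at 0.577% of its mESC level (0.341% to 0.913%), where the mESC markers together stood at 0.359%. Dppa5a gave 133 of the 193 UMIs of these markers, and single markers ranged from 0.0908% (Zfp42) to 0.624% (Dppa5a). Whether NIH/3T3 cells express Trim71 at a low level was not tested.

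L1td1 (chr4:98614971-98626717), an RNA-binding protein gene derived from a LINE-1 element and known from pluripotent cells, stood at 613.5 CPM in mESCs (599.8 to 627.5), 0.501 CPM in N2a (9 UMIs, 0.229 to 0.952) and 0.427 CPM in NIH/3T3 (5 UMIs, 0.139 to 0.997). It was 1224 times higher in mESCs than in N2a (644.4 to 2678) and 1435 times higher than in NIH/3T3 (614.8 to 4422). N2a and NIH/3T3 could not be told apart at this depth, with a ratio of 1.17 (0.353 to 4.45). Ranked by the ratio of mESCs to the higher of the other lines, L1td1 came at rank 1 of the 11366 genes. This rank rests on 9 UMIs in N2a, and the ratio has a wide interval. By the same ratio, Igf2bp1 ranked 629, Trim71 630 and Igf2bp3 917. In mESCs, 81.8% of cells had an L1td1 UMI and 42.6% after thinning, compared with 0.387% and 0% in N2a. The 0 of 2323 thinned N2a cells allow up to 0.159% of cells with a UMI at that depth, by the Clopper-Pearson interval. The 6 mESC markers together stood at 0.262% of their mESC level in N2a and 0.359% in NIH/3T3. L1td1 was lower than these sums in both lines, at 0.0817% in N2a and 0.0697% in NIH/3T3, and is read as background there. Single markers ranged from 0.0592% (Zfp42) to 0.5% (Esrrb) in N2a, and from 0.0908% (Zfp42) to 0.624% (Dppa5a) in NIH/3T3.

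**Figure D2:**
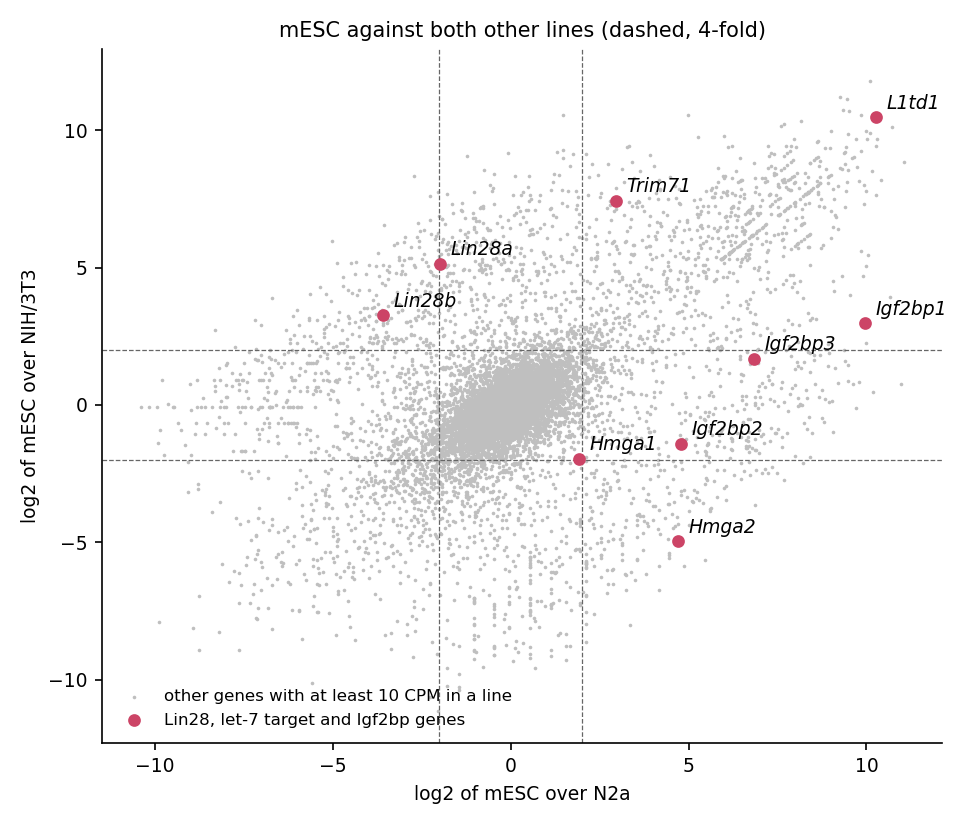
Log2 ratio of mESCs over N2a (horizontal) and over NIH/3T3 (vertical) for each gene with at least 10 CPM in a line, with the 9 described genes in red and 4-fold limits dashed. L1td1, Igf2bp1 and Trim71 lie above both limits, Lin28b and Hmga2 lie in opposite corners, and Lin28a and Hmga1 lie at a limit.

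The HMGA genes were led by NIH/3T3. Hmga2 (chr10:120197173-120313095), an architectural chromatin protein gene and the best known let-7 target, stood at 1494 CPM in NIH/3T3 (1472 to 1517), 47.6 CPM in mESCs (43.9 to 51.7) and 1.84 CPM in N2a (1.27 to 2.58). The NIH/3T3 level was 31.4 times that in mESCs (28.9 to 34.1) and 813.0 times that in N2a (578.7 to 1181). The BC1 ranges were far apart, from 1180 to 1749 CPM in NIH/3T3, from 25.5 to 70.4 CPM in mESCs and from 0 to 6.73 CPM in N2a. Hmga2 UMIs appeared in 91.5% of NIH/3T3 cells, 19.6% of mESCs and 1.42% of N2a cells, and in 67.2%, 4.82% and 0.215% after thinning. At 0.123% of the NIH/3T3 level, the N2a count was close to that of the 4 NIH/3T3 markers, 0.133%. A copy listed as Hmga2-ps1 held 95 UMIs in NIH/3T3, 3 in mESCs and 0 in N2a, beside 17479 UMIs of Hmga2 in NIH/3T3. How reads that match both copies were counted is not given in the sources used here.

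Hmga1 (chr17:27775449-27782648) stood at 53.4 CPM in NIH/3T3 (49.3 to 57.8), 13.7 CPM in mESCs (11.7 to 15.9) and 3.62 CPM in N2a (2.79 to 4.61). The intervals did not overlap, but BC1 values did, with 21.7 to 86.9 CPM in NIH/3T3 and 3.20 to 28.8 CPM in mESCs. The NIH/3T3 level was 3.90 times that in mESCs (3.28 to 4.64) and 14.8 times that in N2a (11.4 to 19.4). Its near-identical copy Hmga1b (chr11:120653620-120655245) stood at 17.1, 8.03 and 4.07 CPM in NIH/3T3, mESCs and N2a, so the Hmga1 levels are uncertain. With both summed, the levels were 70.5, 21.7 and 7.69 CPM, and the order was kept.

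The 3 Igf2bp genes shared a low level in N2a and differed in which other line was highest. Igf2bp1 (chr11:95847989-95896911) stood at 1052 CPM in mESCs (1034 to 1071), 134.0 CPM in NIH/3T3 (127.5 to 140.8) and 1.06 CPM in N2a (0.637 to 1.65). It was 7.85 times higher in mESCs than in NIH/3T3 (7.45 to 8.28) and 994.4 times higher than in N2a (636.5 to 1652). Of mESCs, 92.6% had an Igf2bp1 UMI, as did 48.0% of NIH/3T3 cells and 0.818% of N2a cells. After thinning, the shares were 62.3%, 13.3% and 0.172%.

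Igf2bp3 (chr6:49062144-49192447), a gene of fetal tissues and of tumors, stood at 386.1 CPM in mESCs (375.2 to 397.2), 120.0 CPM in NIH/3T3 (113.8 to 126.5) and 3.34 CPM in N2a (2.55 to 4.30). It was 3.22 times higher in mESCs than in NIH/3T3 (3.03 to 3.42), which was under the 4-fold limit, and all BC1 values of mESCs, from 261.5 CPM, were above those of NIH/3T3, up to 158.1 CPM. Igf2bp2 (chr16:21877759-21982499), the member of the family with the widest adult expression, had the opposite order. It stood at 267.4 CPM in NIH/3T3 (258.1 to 276.9), 100.3 CPM in mESCs (94.8 to 106.1) and 3.62 CPM in N2a (2.79 to 4.61), and was 2.67 times higher in NIH/3T3 than in mESCs (2.50 to 2.85).

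The 3 Igf2bp genes together gave 1539 CPM in mESCs (1517 to 1561), 521.5 CPM in NIH/3T3 (508.5 to 534.7) and 8.02 CPM in N2a (6.76 to 9.44). The line with the most Lin28, at 331.2 CPM for both paralogs, was thus the one with the least Igf2bp mRNA. By cell, 71.7% of N2a cells had a Lin28 UMI and no Igf2bp UMI, while 83.0% of NIH/3T3 cells and 81.4% of mESCs had an Igf2bp UMI and no Lin28 UMI. Both kinds were seen in 4.82% of N2a cells, 1.37% of NIH/3T3 cells and 14.9% of mESCs, at full depth.

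Igf2bp2 in N2a stood at 1.35% of its NIH/3T3 level (1.04% to 1.73%), compared with 0.133% for the NIH/3T3 markers, and Igf2bp3 at 0.866% of its mESC level (0.659% to 1.12%), compared with 0.262% for the mESC markers. Barcodes with at most 100 UMIs in the N2a matrix had 5.94 CPM of Igf2bp2 (2.97 to 10.6) and 5.40 CPM of Igf2bp3 (2.59 to 9.93), and both intervals overlapped with those of the cells. Of the 65 Igf2bp2 UMIs in N2a cells, 24 came from 8 cells with 2 or more. These cells, chosen after the values were seen, came from 8 BC1 sequences, and all 8 had Hand2 and Lin28b UMIs, with 0 UMIs of the NIH/3T3 markers and 0 of Hmga2. Igf2bp1 in N2a, in contrast, stood at 0.101% of its mESC level, below the 0.262% of the mESC markers, and is read as background.

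**Figure D3:**
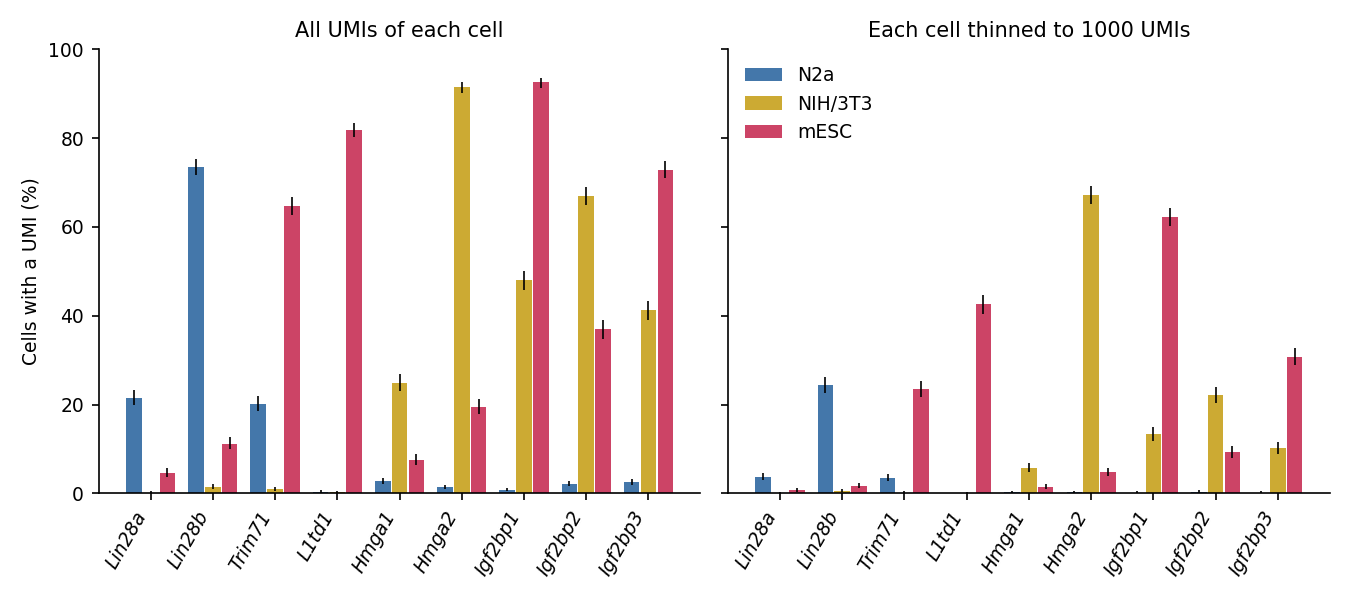
Percent of cells with at least 1 UMI of each gene in the 3 lines, from all UMIs (left) and after thinning each cell to 1000 UMIs (right), with 95% Clopper-Pearson intervals. The leading line of each gene was the same before and after thinning, such as NIH/3T3 for Hmga2 at 91.5% and 67.2%.

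Genes with the same profile over the lines were looked for by the Euclidean distance of log2(CPM + 1) over the 3 lines. The nearest to Lin28b were Fbln1 (259.6 CPM in N2a, 28.4 CPM in mESCs and 1.62 CPM in NIH/3T3) and Fbxl7 (326.8, 17.0 and 2.39 CPM), at distances of 0.519 and 0.536. The nearest to Trim71 were Morc1 (40.4, 236.2 and 1.11 CPM) at 0.398 and the noncoding RNA Rian at 0.697. For L1td1 they were Jam2 (0.608) and Fbxo15 (0.609), and for Igf2bp1 Mid1 (1.48) and Mt2 (1.70). For Hmga2 they were S100a11 (0.961) and Nav2 (1.72). The distances cover 3 points only.

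The machinery around the circuit was spread less over the lines. Of 12 microRNA biogenesis genes, 11 reached 10 CPM and 0 were at least 4-fold higher in 1 line than in both others, compared with 19.1% of all genes. Their ratio of the highest to the lowest line had a median of 1.51 and ranged from 1.08 to 2.97. Over all genes the median was 2.43, and over the 9 genes described here it was 140.5. These 9 genes were chosen with earlier results of these data known, so their spread is a description only. The widest were Prkra, whose product binds double-stranded RNA, at 7.47 CPM in mESCs, 15.1 CPM in NIH/3T3 and 22.2 CPM in N2a, and Tnrc6b, a silencing scaffold, at 172.7, 306.1 and 367.7 CPM in the same order. Drosha, which cuts the primary transcript, stood at 181.8, 109.8 and 140.1 CPM.

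Of 10 regulators of let-7, 1 passed the rule, where 19.1% of all genes did. Msi1, which encodes an RNA-binding protein of neural progenitors, stood at 91.7 CPM in N2a, with 17.4 CPM in mESCs and 6.67 CPM in NIH/3T3. Tut4, whose product adds uridines to let-7 precursors held by LIN28A, differed by 1.70 times between the highest and the lowest line, and Dis3l2, which degrades the tailed precursors, by 2.20 times.

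Host transcripts of let-7 hairpins were the other point of contrast. Mir100hg (chr9:41238321-41628290), which contains the let-7a-2 hairpin, stood at 357.8 CPM in NIH/3T3 (347.1 to 368.9), 82.9 CPM in N2a (78.7 to 87.2) and 1.95 CPM in mESCs (1.25 to 2.90). Its intervals did not overlap, and mESCs were lowest. Huwe1, which contains the let-7f-2 and miR-98 hairpins, stood at 607.2, 1078 and 799.1 CPM in NIH/3T3, N2a and mESCs. The host level does not give the level of the mature microRNA.

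Other known let-7 targets did not follow 1 line. Of 24 on the list, 23 reached 10 CPM and 6 passed the rule, with 2 in each line. Of all genes, 19.1% passed. Mycn (57.9 CPM) and Arid3b (52.9 CPM) were highest in mESCs, and the next line was N2a for both, at 6.01 and 4.79 CPM. The cyclins Ccnd1 (601.2 CPM) and Ccnd2 (317.7 CPM) were highest in NIH/3T3, and Fign (269.4 CPM), which encodes a microtubule-severing protein, and the insulin receptor gene Insr (135.4 CPM) in N2a. The median log2 ratio of the list was -0.18 for mESCs over N2a and 0.13 for mESCs over NIH/3T3. Among the 44 genes at 10 CPM or more with 3 or more seed matches, it was 0.30 and 0.07, compared with -0.04 and -0.02 for the 9258 genes without a match. The 44 include Trim71, Lin28b, Hmga2 and Igf2bp1, and Nr6a1, Igdcc3 and Fign of the target list. Their 3′ UTRs had a median length of 4785 bases, compared with 1809 bases without a match, and the part of length was not tested.

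Of 9 mRNAs known to be bound by IGF2BP proteins, 7 reached 10 CPM and 1 passed the rule, again beside 19.1% of all genes. Cd44, a cell surface receptor gene, stood at 356.2 CPM in NIH/3T3 and under 1 CPM in both other lines. Igf2, for which the family is named, had 0 UMIs in each line, with upper Poisson limits of 0.315 CPM in NIH/3T3, 0.299 CPM in mESCs and 0.205 CPM in N2a. Myc, named after its values were seen, was lowest in mESCs at 4.14 CPM, with 74.7 CPM in NIH/3T3 and 60.5 CPM in N2a. Of 8 other high mobility group genes, 0 passed the rule that 19.1% of all genes passed, and the widest were Hmgn3 (7.14 CPM in mESCs, 110.0 CPM in NIH/3T3 and 86.5 CPM in N2a) and Hmga1b.

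Within a line, Hmga2 had the largest ratio of variance to mean among the genes described here. At 1000 UMIs per cell, its variance was 1.84 times its mean in NIH/3T3, which ranked 15 of 9004 genes. The median of these genes, all with a mean of at least 0.01 UMIs, was 1.02. Hmga2 had a mean of 1.53 UMIs, and the rank was not matched for the mean. For the other genes, ratios in the leading line were 1.11 for L1td1, 1.10 for Igf2bp1, 1.09 for Igf2bp3 and 1.02 for Trim71 in mESCs. They were 1.06 for Lin28b and 0.985 for Lin28a in N2a, and 1.04 for Igf2bp2 and 0.992 for Hmga1 in NIH/3T3. In the 1227 NIH/3T3 cells with at least 4000 UMIs, Hmga2 ranged from 171.5 CPM at the 5th percentile to 1301 CPM at the median and 3444 CPM at the 95th. Hmga2 was at 0 UMIs in 42 of these cells, where equal levels in all cells would give 0.381 by the Poisson distribution. L1td1 was at 0 in 82 of 1286 mESCs of that depth, with 29.6 by the same calculation.

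These NIH/3T3 cells were divided into 4 groups of 306 or 307 cells by their Hmga2 level, and the levels of other genes were set side by side as a description. Igf2bp2 was at 220.1 CPM in the lowest group (201.3 to 240.2) and 332.4 CPM in the highest (310.0 to 355.9), 1.51 times higher (1.35 to 1.69), and it was higher in each group than in the one before. For Igf2bp1 the interval included 1, with 126.9 and 135.0 CPM and a ratio of 1.06 (0.906 to 1.25), as for Hmga1, with 53.8 and 44.2 CPM and a ratio of 0.821 (0.628 to 1.07). Igf2bp3 stood at 101.5 and 130.5 CPM, a ratio of 1.29 (1.08 to 1.53), without a steady order over the groups.

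Of genes chosen after their values were seen, Mir100hg went from 253.4 to 431.7 CPM and the cell cycle kinase gene Cdk6 from 210.1 to 311.3 CPM from the lowest to the highest group. Collagen Col1a2 went the other way, from 560.2 to 400.1 CPM, and Prrx1, also an NIH/3T3 marker, from 544.0 to 741.0 CPM. 4930467D21Rik went from 39.8 to 208.8 CPM, Gm10701 from 386.4 to 693.5 CPM and S100a4 from 2579 to 1924 CPM. Of the cell cycle genes, Top2a went from 925.6 to 1181 CPM and Mki67 from 723.9 to 691.9 CPM. The share of all genes that differed between the groups is not given here, so none of these differences is called particular. The groups had like depths, with medians of 6642 to 6964 UMIs, and each drew on all 32 BC1 sequences. The share of ribosomal protein UMIs fell from 10.5% in the lowest to 8.52% in the highest group. The parts of this share and of the cell cycle in these differences were not tested.

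**Figure D4:**
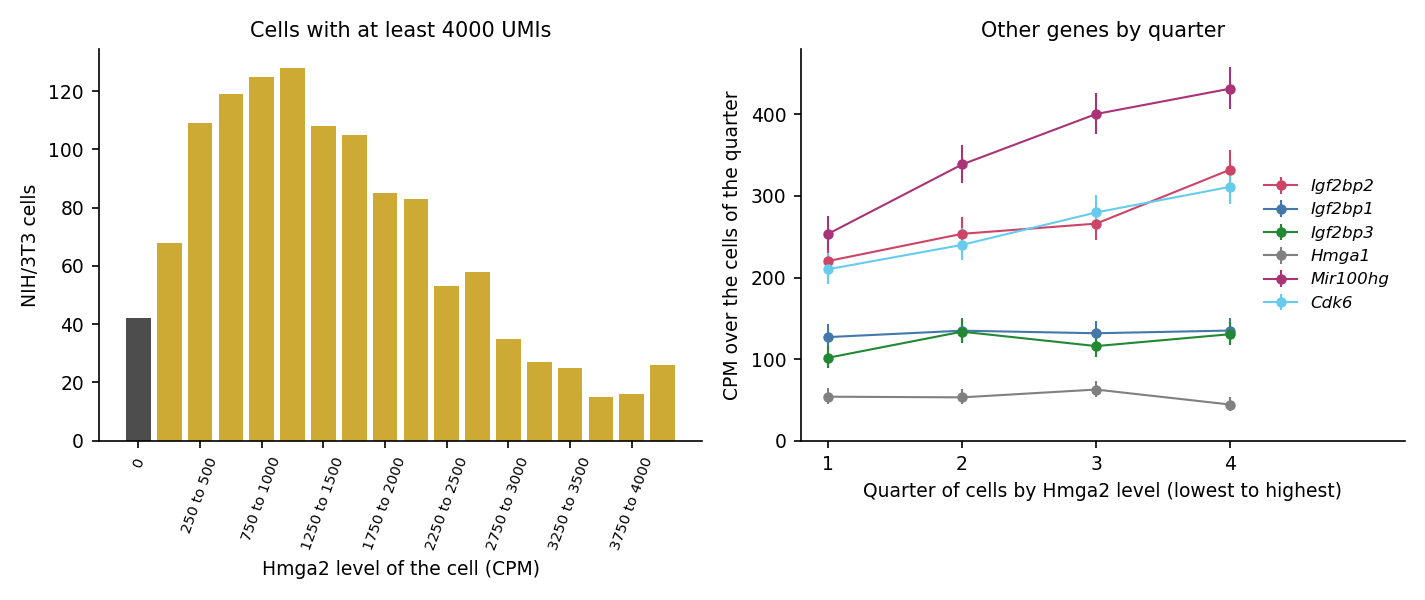
NIH/3T3 cells with at least 4000 UMIs by their Hmga2 level in CPM (left, dark bar for cells at 0, last bar above 4000 CPM) and the levels of 6 other genes over the 4 groups of these cells by Hmga2 level (right, with 95% Poisson intervals). Igf2bp2 goes from 220.1 to 332.4 CPM, whereas Igf2bp1 goes from 126.9 to 135.0 CPM.

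Among mESCs, 76 cells carried at least 3 UMIs of genes of the 2-cell embryo program, such as Zscan4c, and are called 2-cell-like here. All 9 genes had lower CPM in these cells than in the other 2061 mESCs. So did 67.3% of the 9109 genes with at least 10 CPM in mESCs, among which 8 of the 9 are counted, without Lin28a. The 95% interval of the ratio of the other cells to the 2-cell-like cells stayed above 1 for 5 of these 8, compared with 19.4% of the 9109 genes. Whether an interval excludes 1 depends on the number of UMIs, and the 9109 genes were not matched for level. Igf2bp3 was at 161.6 CPM (123.3 to 208.0) and 393.0 CPM (381.9 to 404.4) in the 2-cell-like and the other cells, a ratio of 2.43 (1.89 to 3.19). L1td1 was at 309.7 and 623.0 CPM, a ratio of 2.01 (1.67 to 2.44), and Trim71 at 180.4 and 269.4 CPM, a ratio of 1.49 (1.17 to 1.93).

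Hmga2 was at 13.5 and 48.7 CPM, with only 5 UMIs in the 2-cell-like cells and a ratio of 3.62 (1.54 to 11.2), and Igf2bp1 was at 864.4 and 1058 CPM, a ratio of 1.22 (1.10 to 1.37). The intervals of Lin28a, Lin28b, Hmga1 and Igf2bp2 included 1. Of the pluripotency markers, Esrrb was lower in these cells by a ratio of 2.21, Zfp42 by 1.57, and Pou5f1 by 1.02 with an interval of 0.664 to 1.66. Median depth was 3984 and 4842 UMIs, and its part was not tested.

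**Figure D5:**
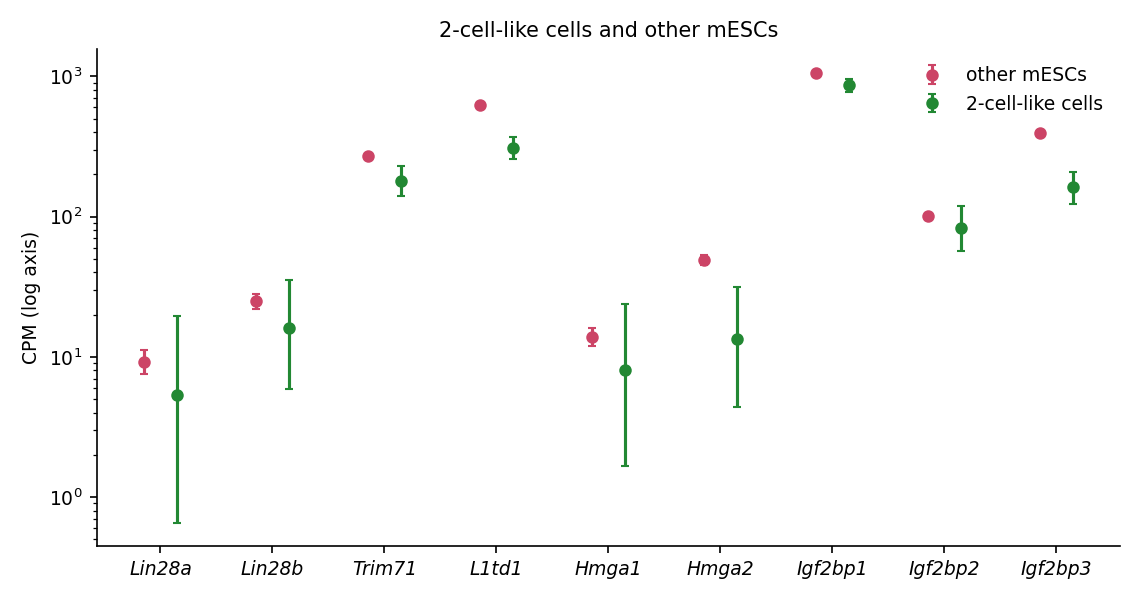
Level in CPM on a log axis of each gene in the 76 2-cell-like cells and the 2061 other mESCs, with 95% Poisson intervals. The intervals are apart for Trim71, L1td1, Hmga2, Igf2bp1 and Igf2bp3, and Igf2bp3 stands at 161.6 and 393.0 CPM.

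Detection in the same cell was set beside the product of the single shares, and the differences were not tested. In mESCs thinned to 1000 UMIs, L1td1 and Igf2bp3 were seen together in 305 of 2137 cells, and the product of their shares gives 280.2. In thinned NIH/3T3 cells, Hmga2 and Igf2bp2 were together in 329 cells, with 303.1 from the product. In thinned N2a cells, Lin28a and Lin28b were together in 21 cells, with 21.2 from the product. The pairs named so far for mESCs and NIH/3T3 had the largest excess over the product in their lines. Other pairs lay below it, such as Igf2bp1 with Igf2bp3 in mESCs (393 cells, 409.8 from the product). Hmga1 with Hmga2 in NIH/3T3 did so too (70 cells, 78.6 from the product). At full depth, the cells showed a median of 4 of the 9 genes in mESCs, 3 in NIH/3T3 and 1 in N2a.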

How the data were processed

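The authors barcoded cells of the 3 lines in separate columns of the BC1 plate, trimmed the template switching oligo, and ran STARsolo for alignment and counting (build GRCm39, GENCODE M30 annotation). The deposited values are UMI counts of each gene in each barcode, unfiltered and not normalized, in 4 matrices, 3 for the lines and 1 pooled from the same reads. The strand setting and the feature mode are not given in the sources used here. The matrices held 13505027 to 20662884 UMIs per line.

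From these counts, cells were filtered, and CPM, exact intervals and conditional binomial ratio intervals were computed with Python 3.11.15, numpy 2.4.6, scipy 1.17.1 and pandas 2.3.3, and tested on simulated data. Thinning drew 1000 UMIs per cell with a fixed seed. No doublet caller was run, and dropping the deepest 5% of cells in each line was an alternative. A count of 0 was set to 3 counts in ratios. Seed matches and positions came from GENCODE M39, where 32953 of the 33565 identifiers were found, and microRNA sequences from RefSeq (GRCm38.p6). All listed genes that were analysed were named, as were let-7 hosts with at least 10 CPM. Of each pathway list, genes past the 4-fold rule or otherwise the 2 widest were named. So were the 2 nearest genes of each gene past the rule. Drosha, Tut4, Dis3l2, Igf2 and Myc were named after their values were seen. The genes and lists were chosen with earlier results of these data known.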

Additional observations from a re-analysis of the deposited data

How the results depend on the processing

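All 9 genes kept their highest line under each of 9 alternatives to the cells, counts and scaling. Lin28a and Hmga1 lay at the 4-fold limit. The N2a count was 2 in place of 1, with Lin28a, at a minimum of 2000 UMIs, without the 5% of cells with the most UMIs, and with every cell weighted equally. The NIH/3T3 count was 2 in place of 1, with Hmga1, with all barcodes, with median-of-ratios size factors, and with every cell weighted equally. At 2-fold, the counts were 3 in NIH/3T3, 2 in N2a and 4 in mESCs. They were 1 for the high mobility group list in place of 0 and 3 for the IGF2BP-bound list in place of 1. The other let-7 targets had 9 in place of 6. At 8-fold, the counts were 1 in mESCs in place of 3, 0 for the let-7 regulators in place of 1 and 4 for the other let-7 targets. With no filter on low levels, 1 microRNA biogenesis gene, Ago4, passed in place of 0, and 7 other let-7 targets passed. The shares of all genes at these settings are not given here. Leaving out mitochondrial and ribosomal genes moved 14 of 27 levels beyond their intervals, with a median log2 shift over all genes of 0.19 in NIH/3T3, 0.16 in mESCs and 0.15 in N2a. Thinning moved 26 of 27 shares of cells. No paired analysis was possible because each line had 1 library and no test was made. With 1 culture per line, a difference between cultures cannot be told apart from a difference between lines.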
